A study of Homo sapiens with 8 samples.

Results

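Intronic open regions were the stretches of accessible chromatin that lay inside a protein-coding gene, touched no exon of any gene and were over 5 kb from every transcription start site (TSS) of a protein-coding gene. They were found by merging the overlapping ATAC-Seq peaks of all 8 libraries on chromosomes 1 to 22, keeping the regions with a peak in at least 2 libraries, and comparing their positions with the GENCODE 44 annotation of GRCh38. Of 98302 merged regions, 59800 had a peak in at least 2 libraries, and 15814 of these (26.4%) were intronic. They lay in 5517 of 19111 protein-coding genes. For comparison, 21266 regions were distal intergenic (over 5 kb from a TSS and outside protein-coding genes), 3951 were exonic (over 5 kb from a TSS and overlapping an exon), 14413 were promoter regions (within 1 kb of a TSS) and 4356 fell in none of these classes.

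The libraries were made from HEK293T cells, an established human embryonic kidney line. Lentivirus brought in WT EZH2 or one of its mutants, and blasticidin selected the infected cells, so that every line, WT included, carried an introduced EZH2 beside the unmutated gene of the cells themselves. Y641F and A677G are gain-of-function (GOF) mutants, and the double mutant H689A/F667I, called LOF here, is a loss-of-function mutant. The study describes selection for monoclonal populations. Each genotype had 1 line with 2 libraries, described as biological replicates, so the effect of a genotype cannot be told apart from a property of its line. Promoters of marker genes were looked at for the cell type. Of 10 kidney and HEK293 lineage genes, 9 had a promoter peak in all 8 libraries (INA lacked one in Y641F replicate 1). The 6 promoters of blood, liver, heart and pancreas genes had no peak. Over all promoter regions 71.6% were open in all 8 libraries, so the open promoters alone say little about the cell type.

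EZH2 is the catalytic subunit of Polycomb repressive complex 2, and places H3K27me3 on histone H3, a mark of compact and silent chromatin. ATAC-Seq uses the Tn5 transposase to cut and tag DNA that is free of nucleosomes. Introns hold many enhancers, silencers, alternative promoters and binding sites of CTCF, the insulator protein that anchors chromatin loops, and such elements can act on the gene around them or on another gene at a distance. Long genes of the nervous system hold some of the largest introns of the genome. What an intronic open region does cannot be read from its accessibility.

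A region is called open in a library when it overlaps a peak that the authors called there by at least 1 bp, and closed otherwise. Signal below the peak caller's threshold can be present in a region called closed. The number of reads per library is unknown, and the number of peaks on chromosomes 1 to 22 ranged from 25423 (Y641F replicate 1) to 62739 (WT replicate 1). The fold enrichment of a peak is its pileup over the local background, as the authors' peak caller gave it. The intervals given with shares are 95% Wilson intervals and cover counting error only.

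The sequences of some intronic regions show what was measured. Each is the 200 bases at the centre of the region, read from the forward strand of GRCh38, and capitals mark the letters of any of the searched motifs on either strand. The regions were taken by the highest mean rank of fold enrichment within their pattern. Among the regions open in all 8 libraries, those in intron 9 of ETV1, an ETS family transcription factor, and in intron 1 of PHKB, a subunit of phosphorylase kinase, are shown first. The capitals in ETV1 mark a HOX motif (TTTATNG) and an E-box (CAGCTG), and those in PHKB a HOX motif and a CTCF-like string (CTAGNNGGC).
ETV1, chr7:13920200-13920399: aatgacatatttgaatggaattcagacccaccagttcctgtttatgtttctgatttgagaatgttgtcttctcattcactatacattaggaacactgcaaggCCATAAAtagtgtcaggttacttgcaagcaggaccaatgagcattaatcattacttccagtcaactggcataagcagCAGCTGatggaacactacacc
PHKB, chr16:47492918-47493117: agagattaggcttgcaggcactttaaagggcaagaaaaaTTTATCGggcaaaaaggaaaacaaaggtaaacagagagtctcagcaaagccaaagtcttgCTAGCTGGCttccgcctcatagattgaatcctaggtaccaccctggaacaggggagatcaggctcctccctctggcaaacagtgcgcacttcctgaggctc
The fold enrichment of the ETV1 region was 8.70 and 7.23 in the WT libraries, 7.99 and 7.30 in Y641F, 7.18 and 7.75 in A677G, with 6.48 and 7.79 in LOF. In PHKB it was 6.65 and 6.81 in WT, 6.51 and 8.64 in Y641F, 7.33 and 8.0 in A677G, with 7.81 and 11.4 in LOF. The lowest value was in LOF replicate 1 in ETV1 and in Y641F replicate 1 in PHKB, and in neither region did both libraries of a mutant lie below both WT libraries.

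The next regions had a peak in each of the 4 WT and LOF libraries and in no GOF library. One lay in intron 2 of FOXP1, a forkhead transcription factor, and another in intron 5 of KCNMA1, the pore subunit of a calcium-activated potassium channel. The capitals in FOXP1 mark E-boxes, and those in KCNMA1 a TEAD motif (GGAATG on the reverse strand) followed by the CTCF-like string.
FOXP1, chr3:71531268-71531467: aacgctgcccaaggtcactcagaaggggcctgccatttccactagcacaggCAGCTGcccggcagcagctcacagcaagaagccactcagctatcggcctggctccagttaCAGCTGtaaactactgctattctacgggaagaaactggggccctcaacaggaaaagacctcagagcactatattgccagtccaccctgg
KCNMA1, chr10:77165864-77166063: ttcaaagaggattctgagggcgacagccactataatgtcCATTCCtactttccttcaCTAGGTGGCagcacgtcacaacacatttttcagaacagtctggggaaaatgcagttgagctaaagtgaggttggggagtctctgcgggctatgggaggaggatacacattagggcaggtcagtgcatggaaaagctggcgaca
The FOXP1 region had a fold enrichment of 5.62 and 5.49 in WT and of 4.17 and 5.15 in LOF. The KCNMA1 region had 4.14 and 6.17 in WT and 5.11 and 4.91 in LOF. Another region of this kind lay in intron 1 of AGAP1, which encodes a GTPase-activating protein for ARF proteins, with a fold enrichment of 5.28 and 4.77 in WT and 4.82 and 4.69 in LOF.

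Regions that only the 2 WT libraries held open were led by intron 38 of LRRK2, a protein kinase gene, intron 2 of MARCHF11, a ubiquitin ligase gene, and intron 11 of IL17RD, a receptor of the interleukin 17 family. The latter pair both carried the CTCF-like string, and the LRRK2 window held a GATA motif (AGATAA).
LRRK2, chr12:40325418-40325617: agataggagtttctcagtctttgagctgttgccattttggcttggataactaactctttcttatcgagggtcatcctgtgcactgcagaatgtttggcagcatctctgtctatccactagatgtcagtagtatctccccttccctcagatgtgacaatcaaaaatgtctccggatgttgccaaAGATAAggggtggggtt
MARCHF11, chr5:16160836-16161035: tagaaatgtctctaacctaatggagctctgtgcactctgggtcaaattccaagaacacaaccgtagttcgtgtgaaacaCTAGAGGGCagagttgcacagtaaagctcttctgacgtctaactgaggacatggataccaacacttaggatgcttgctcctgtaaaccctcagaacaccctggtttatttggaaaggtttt
IL17RD, chr3:57100159-57100358: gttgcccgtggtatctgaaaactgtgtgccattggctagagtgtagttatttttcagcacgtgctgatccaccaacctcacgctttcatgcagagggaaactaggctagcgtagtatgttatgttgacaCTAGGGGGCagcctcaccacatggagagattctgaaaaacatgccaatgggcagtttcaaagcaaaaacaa
Their WT fold enrichment was 6.29 and 5.54 in LRRK2, 5.93 and 5.20 in MARCHF11 and 6.88 and 4.99 in IL17RD. These were narrow regions of 260, 297 and 237 bp. Among the 3 leading regions of each of these patterns, those in PHKB, KCNMA1, MARCHF11 and IL17RD held the CTCF-like string, which was added to the motif search after these sequences had been read.

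The opposite pattern, open in all 4 GOF libraries and closed in all 4 others, was found in 3 of the 59800 regions (0.00502%), and all 3 were intronic. They lay in intron 27 of NEK1, a kinase of cilia and the DNA damage response, intron 3 of AKAP7, which anchors protein kinase A, and intron 6 of ANXA8, an annexin. They are named because they were so few, after their values were seen. The NEK1 window held a ZIC motif (CCTGCTG), and the AKAP7 window held none of the searched motifs.
NEK1, chr4:169441350-169441549: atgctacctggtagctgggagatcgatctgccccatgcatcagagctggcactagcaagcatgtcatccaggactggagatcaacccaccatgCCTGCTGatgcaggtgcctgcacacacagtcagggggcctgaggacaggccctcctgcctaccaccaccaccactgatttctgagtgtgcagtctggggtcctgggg
AKAP7, chr6:131161856-131162055: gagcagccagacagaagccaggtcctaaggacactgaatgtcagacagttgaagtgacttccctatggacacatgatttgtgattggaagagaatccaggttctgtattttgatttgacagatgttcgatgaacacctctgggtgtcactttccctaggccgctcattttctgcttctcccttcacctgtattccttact
Fold enrichment in the Y641F libraries was 3.35 and 3.08 in NEK1, 3.26 and 2.85 in AKAP7 and 3.65 and 3.32 in ANXA8. In the A677G libraries it was 3.75 and 3.99, 3.05 and 3.37, and 3.49 and 3.45. ANXA8 has near-identical copies in the genome, so where its reads came from is uncertain. The median fold enrichment of the open intronic regions ranged from 3.596 to 3.81 over the libraries, and all of these values but NEK1 in A677G replicate 2 and ANXA8 in Y641F replicate 1 lay below the median of their own library. When every library was cut to its 25423 strongest peaks, 27 of 6508 intronic regions had this pattern (0.415%), against 0.249% of all regions.

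The first comparison asked how many intronic regions stayed open in each line. Of the WT libraries, the first held 12961 and the second 12764 of the 15814 regions open (82.0% and 80.7%). The Y641F libraries held 3757 and 6302 (23.8% and 39.9%), the A677G libraries 6722 and 8704 (42.5% and 55.0%), and the LOF libraries 9293 and 9684 (58.8% and 61.2%). The lines did not overlap, with WT highest, then LOF, then A677G, then Y641F. To be kept, a region needed a peak in at least 2 of these same libraries. The 1375 members open in both WT libraries and in no mutant library entered through WT alone, which raises the WT shares. The mean number in WT was 12862.5 ± 139 (SD, n = 2). That in LOF was 9488.5 ± 276 (SD, n = 2), that in A677G 7713 ± 1401 (SD, n = 2) and that in Y641F 5029.5 ± 1799.6 (SD, n = 2). The 2 libraries of Y641F and those of A677G differed from each other more than those of the other lines. With 2 libraries against 2, an exact permutation test cannot give a p below 0.333, which each mutant reached against WT.

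**Figure D1:**
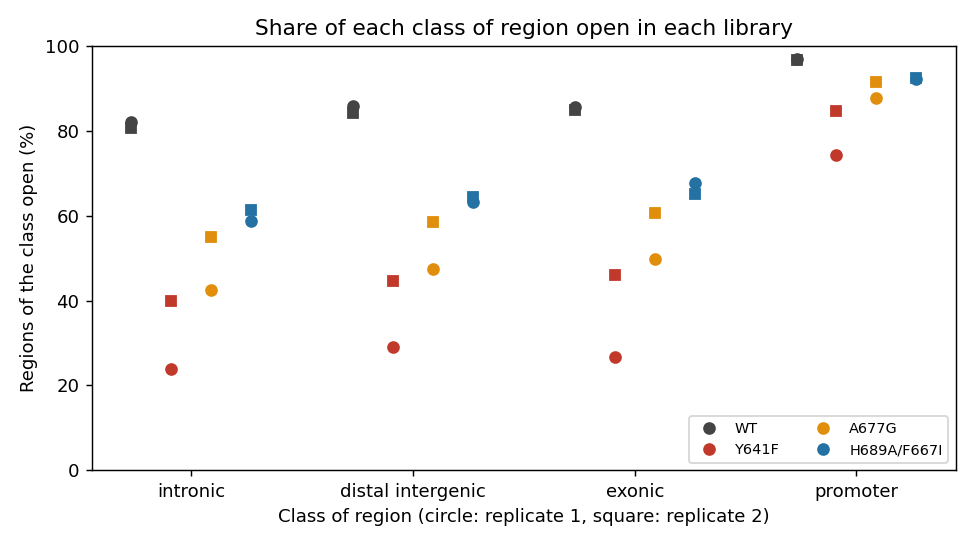
The vertical axis gives the percent of the regions of each class that were open in a library, with 1 point per library (circle for replicate 1, square for replicate 2), coloured by line. Intronic regions range from 23.8% in Y641F replicate 1 to 82.0% in WT replicate 1, close to the distal intergenic and exonic classes, while promoter regions range from 74.3% to 97.0%.

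Intronic regions also made up a smaller share of what was open. They were 24.8% and 24.7% of the open regions in WT, 16.5% and 19.8% in Y641F, 20.01% and 22.1% in A677G, with 22.3% and 22.9% in LOF. Every mutant library lay below both WT libraries, and every GOF library below both LOF libraries. The 4 GOF libraries were compared with the 4 WT and LOF libraries in a two-sided exact permutation test (70 assignments, smallest possible p 0.0286). It took the libraries as independent, although the 2 of each line share that line, so its p speaks of libraries and not of lines. The regions counted had also passed a filter on these same libraries, so the test is not independent of that filter. The mean share was 19.6% in GOF and 23.7% in the others (a difference of -4.10 percentage points), the number of open regions differed by -0.86 on the log2 scale, with all 4 GOF libraries below the other 4, and the ratio of open intronic to open promoter regions differed by -0.69 on the log2 scale. Each of these had p = 0.0286 in the exact permutation test, the smallest it can give, and 0.0667 after Benjamini-Hochberg adjustment over 7 measures, and so none passed 0.05 after adjustment.

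Against distal intergenic regions, the class most like them, intronic regions moved little. The log2 ratio of open intronic to open distal intergenic regions was -0.49 in both WT libraries, -0.71 and -0.59 in Y641F, -0.59 and -0.52 in A677G, with -0.53 and -0.50 in LOF. The GOF libraries overlapped the LOF libraries. The difference was -0.10 (exact permutation p = 0.0571, adjusted 0.1). When every library was cut to its 25423 strongest peaks by −log10 p, the number in the smallest list, this difference was 0.0019 (exact permutation p = 0.914), that of the intronic share was -0.58 percentage points (exact permutation p = 0.114) and that of the number of open intronic regions -0.12 on the log2 scale (exact permutation p = 0.0571). The ratio to promoter regions still differed by -0.13 (exact permutation p = 0.0286). The number of peaks per library thus moved with these measures, and its part in them was tested only by this cut.

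Loss was then counted region by region. Among regions with a peak in each WT library, those with no peak in either library of a mutant were called lost, and those with a peak in both were called retained. Of 11010 intronic regions open in both WT libraries, 5292 (48.1%, interval 47.1 to 49.0) were lost in Y641F, 3259 (29.6%, 28.8 to 30.5) in A677G and 2297 (20.9%, 20.1 to 21.6) in LOF. Over all 46998 regions open in both WT libraries the percent lost was 35.2, 20.8 and 14.1, in the same order. Intronic regions therefore lay above the share over all regions in each line, and the promoter class lay far below it, with 10.8%, 4.32% and 2.84%. Distal intergenic regions were lost at 44.03%, 27.4% and 18.6%, and exonic regions at 42.8%, 24.2% and 15.3%. The mutants share the same 2 WT libraries, so these comparisons are not independent of each other. A single library weighed on some of these counts, since A677G had 5428 lost regions without its replicate 2, and LOF had 3552 and 3771 without its replicate 1 or 2.

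At an equal number of 25423 peaks per library, both WT libraries held 2918 intronic regions open. Y641F lost 672 (23.03%, interval 21.5 to 24.6), A677G 408 (14.0%, 12.8 to 15.3) and LOF 349 (12.0%, 10.8 to 13.2) of them. The percent lost over all regions was then 11.6, 6.85 and 6.11, and over distal intergenic regions 17.3, 11.2 and 9.57. Y641F still had the most losses and LOF the fewest among intronic regions, at lower levels.

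Gains were few with all peaks. Gained regions were those with a peak in both libraries of a mutant and in no WT library, and 1099 intronic regions were open in neither WT library. Of these, 81 (7.37%) were gained in Y641F, 144 (13.1%) in A677G and 254 (23.1%) in LOF. The percent gained over all regions was 8.7, 12.7 and 22.8, so the intronic shares lay near it. To be kept, a region open in neither WT library needed a peak in at least 2 mutant libraries, which raises these shares. With a peak in 1 library enough, the same gains were 0.89%, 1.58% and 2.79% of 9090 intronic regions. Over all regions they were then 1.10%, 1.60% and 2.87%. At an equal number of peaks, 426, 342 and 346 of 1635 intronic regions were gained (26.1%, 20.9% and 21.2%), and the percent over all regions was 28.3, 23.4 and 21.4. Without 1 WT or 1 mutant library the counts with all peaks were larger, from 153 to 366 in Y641F, 293 to 509 in A677G and 541 to 576 in LOF.

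Gained regions were led by fold in intron 24 of PARD3, a cell polarity gene, for LOF, with a fold enrichment of 4.29 and 5.54 in its 2 libraries and no peak in the other 6. In the sequence, capitals mark an E-box.
PARD3, chr10:34113664-34113863: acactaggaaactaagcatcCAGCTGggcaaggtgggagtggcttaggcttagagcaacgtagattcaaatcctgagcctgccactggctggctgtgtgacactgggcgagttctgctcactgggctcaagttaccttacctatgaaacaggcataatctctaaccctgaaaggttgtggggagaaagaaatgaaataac
For A677G the leading region lay in intron 5 of NPAS3, a basic helix-loop-helix transcription factor, with 4.62 and 4.34 in A677G and 3.97 in LOF replicate 2. For Y641F it lay in GRIK2, a kainate receptor gene, with 5.55 and 3.85 in Y641F and 3.46 in LOF replicate 1. The leading gains of A677G and Y641F were thus also open in 1 library of another mutant.

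Of the 11010 regions that both WT libraries held, 4900 (44.5%) were lost in no mutant and 1375 (12.5%) in all 3, while 2110 (19.2%) were lost in Y641F alone and 1267 (11.5%) in both GOF mutants but not in LOF. Regions lost in A677G alone numbered 436, and in LOF alone 201. Regions that Y641F and A677G both lost were 49.9% of the Y641F list and 81.1% of the A677G list. Those lost in both Y641F and LOF were 36.2% and 83.4% of their lists. The WT libraries are common to all these lists. These 1375 were closed in all 6 mutant libraries and made up 8.69% of the intronic regions, against 6.83% of all regions and 9.07% of distal intergenic regions. The regions that every GOF library lacked and every other library held numbered 363 (2.30%), against 2.06% of all and 2.60% of distal intergenic regions, and 44 of 6508 (0.676%) against 0.47% of all and 0.624% of distal intergenic regions at an equal number of peaks. The intronic share was below that of all regions when peaks had to cover 50% of a region (2.39% against 2.50%) or a peak in 1 library was enough (1.18% against 1.25%). At the other end, 2143 intronic regions (13.6%) were open in all 8 libraries, against 30.3% of all regions and 71.6% of promoter regions, and 4300 (27.2%) were open in just 2.

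The size of the WT peak went along with loss. Regions lost in Y641F had a median WT fold enrichment of 3.68 and a median WT peak width of 400 bp, and those retained had 4.47 and 685 bp. The corresponding values were 3.58 and 380.5 bp against 4.33 and 605.5 bp in A677G, and 3.53 and 359 bp against 4.21 and 577.75 bp in LOF. When regions open in both WT libraries were split into 5 groups by WT peak size (−log10 p times width, averaged over the WT libraries), the percent of intronic regions lost in Y641F was 80.1, 66.8, 53.3, 31.1 and 9.17 from the smallest to the largest group. In A677G it was 61.5, 43.7, 26.7, 13.5 and 2.50, and in LOF 49.4, 30.0, 17.3, 6.49 and 1.04. Distal intergenic regions in the same size groups were lost at 81.7%, 68.5%, 51.3%, 31.1% and 7.49% in Y641F, close to the intronic regions of like WT size. Promoter regions in the smallest of these groups were lost at 78.7% in Y641F, and 11293 of the 13686 promoter regions open in both WT libraries fell in the largest, where 2.34% were lost.

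**Figure D2:**
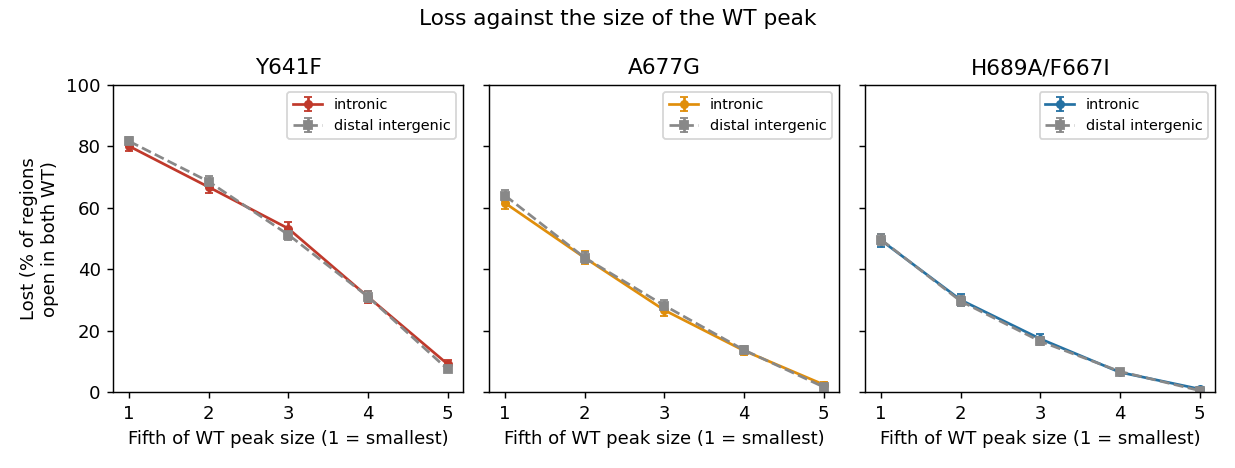
The vertical axis gives the percent of regions open in both WT libraries that were lost, the horizontal axis the group of WT peak size (1 is the smallest of 5), with 1 panel per mutant and 95% Wilson intervals as bars. Solid lines are intronic and dashed grey lines distal intergenic regions. The lines run together in each panel, from 80.1% to 9.17% for intronic regions in Y641F and from 49.4% to 1.04% in LOF.

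Intronic regions were a median of 673 bp wide (quartiles 453 and 933 bp, largest 2942 bp) and lay a median of 31282 bp from the nearest TSS. The 5 kb limit cut through an even spread, with 485 members at 5 to 6 kb and 483 regions left out at 4 to 5 kb. Their median GC content was 46.2%, below that of distal intergenic (48.5%), exonic (50.8%) and promoter regions (62.0%). The median GC content of the open intronic regions was 46.0% and 45.9% in WT, 46.2% in both Y641F libraries, 46.7% and 46.5% in A677G, with 46.5% and 46.1% in LOF. Both WT libraries lay below all mutant libraries, and the LOF libraries overlapped the GOF libraries (GOF minus the others 0.24 percentage points, exact permutation p = 0.229, adjusted 0.32). The sequence that could have held a member, which is intron sequence over 5 kb from a TSS, came to 961.6 Mb, so there were 16.4 members per Mb. Distal intergenic regions had 15.1 per Mb of 1412 Mb. That sequence leaves out the exons of non-coding genes, which distal intergenic regions, unlike members, may overlap. The densities are therefore not counted alike.

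Intron rank was taken from the canonical transcript of the host gene, the shortest protein-coding gene that contains the region. It could be given to 13882 members, while 1932 lay outside the introns of that transcript. The first intron held 3901 members, or 21.7 per Mb. The density was 18.2 per Mb in intron 2, 16.5 in intron 3, 15.7 in introns 4 to 5, 14.4 in introns 6 to 10 and 12.2 in intron 11 or later. First introns were therefore the densest even with the 5 kb around each TSS left out, and the density was lower in each later group. With all peaks, loss differed little with rank, from 46.8% in intron 1 to 50.7% in introns 6 to 10 in Y641F, from 29.2% to 30.6% in A677G and from 19.6% to 22.6% in LOF, and the intervals of intron 1 and of intron 11 or later overlapped in each mutant. With peak numbers made equal, A677G loss was 11.5% (interval 9.22 to 14.3) in intron 1 and 17.5% (14.3 to 21.3) in introns 6 to 10, and Y641F loss went from 21.6% in intron 1 to 29.6% in intron 3. The first intron share of the open ranked members was 27.6% and 27.7% in WT, 28.6% and 28.9% in Y641F, 27.8% and 27.5% in A677G, with 28.3% and 28.2% in LOF. GOF and other libraries overlapped (difference 0.20 percentage points, exact permutation p = 0.571, adjusted 0.571).

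Members lay in long genes, which the rule favours, because a short gene has little intron sequence over 5 kb from a TSS. Their host genes had a median length of 102777 bp, against 27877 bp for all protein-coding genes, and weighted by member the median was 197818 bp. By density the middle lengths led, with 15.3 members per Mb in host genes under 50 kb, 18.3 at 50 to 100 kb, 19.4 at 100 to 200 kb, 17.5 at 200 to 500 kb and 12.0 at 500 kb and over. Loss in Y641F lay between 46.8% and 49.8% in these groups, in A677G between 29.0% and 31.2%, and in LOF between 19.3% and 23.5%. In LOF the genes of 500 kb and over stood at 23.5% (interval 21.7 to 25.4) and those of 50 to 100 kb at 19.3% (17.5 to 21.3). At an equal number of peaks, Y641F loss was 28.1% (interval 23.3 to 33.4) in genes under 50 kb and 20.1% (17.4 to 23.2) in genes of 100 to 200 kb, a spread that all peaks did not show. The median host gene length of the open members was between 195474 and 206409 bp in every library (difference in log10 length 0.0045, exact permutation p = 0.514, adjusted 0.571). That difference was 0.055 with −log10 q of at least 5 (exact permutation p = 0.0571) and 0.020 with an equal number of peaks (exact permutation p = 0.0857).

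**Figure D3:**
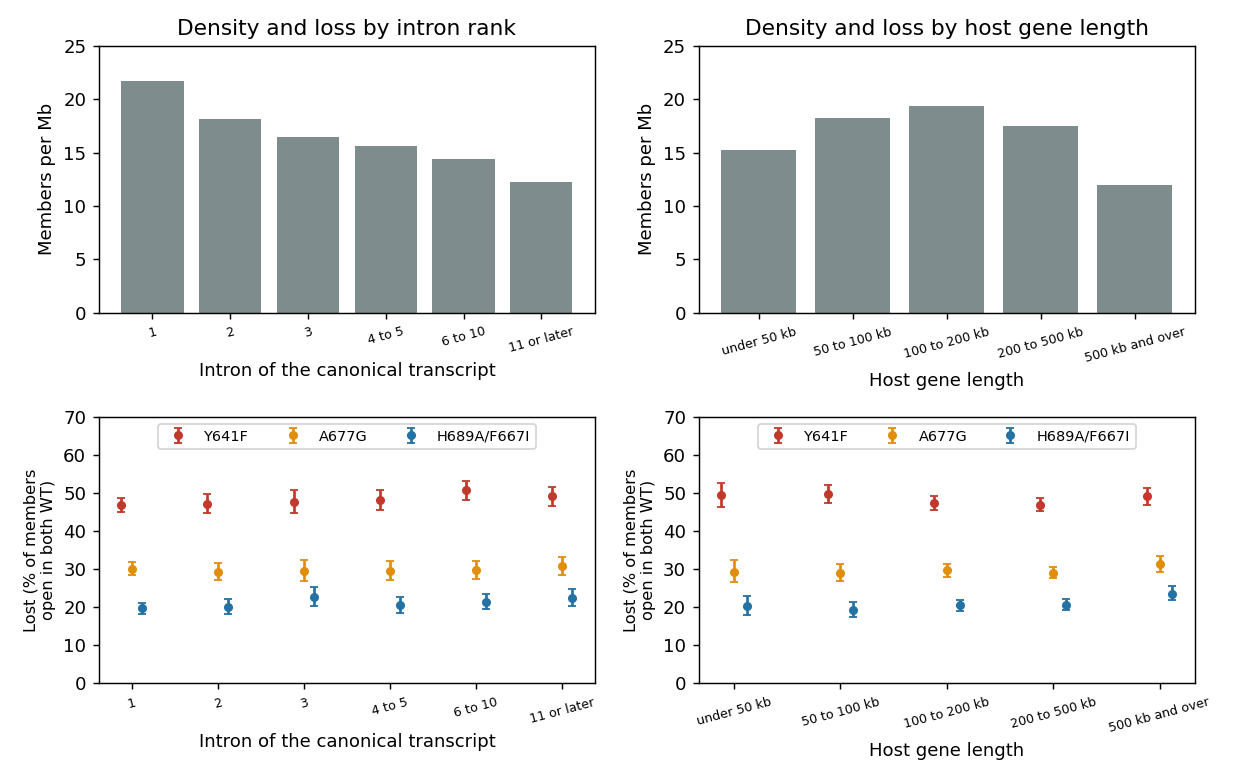
The upper panels give members per Mb of eligible intron sequence as bars, by intron rank (left) and host gene length (right), and the lower panels the percent of members open in both WT libraries that were lost in each mutant, with 95% Wilson intervals. Density goes from 21.7 per Mb in intron 1 to 12.2 in intron 11 or later, while loss stays between 46.8% and 50.7% in Y641F.

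The promoter of the host gene went along with density. Genes whose promoter was open in both WT libraries numbered 13427 and had 17.4 members per Mb of eligible intron, and the 5329 genes with no promoter peak in any library had 11.4. Among genes of 500 kb and over the densities were 13.2 per Mb for 263 genes with an open promoter and 5.28 per Mb for 42 genes with none. Loss differed less, at 47.7% (interval 46.7 to 48.7) and 51.5% (48.6 to 54.4) in Y641F, 29.5% and 30.3% in A677G, with 20.8% and 20.9% in LOF. In the 890 genes whose promoter was itself lost in Y641F, 264 of 466 members were lost in Y641F (56.7%, 52.1 to 61.1), against 47.0% (46.0 to 48.1) in genes whose promoter was retained. The same members were lost at 30.0% in A677G, against 29.6%. For genes whose promoter was lost in A677G, the A677G loss was 29.2% (22.4 to 37.0) against 29.6% (28.6 to 30.5) for genes whose promoter was retained, and the intervals overlapped.

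Most host genes held few members. In 2511 genes there was 1 member, and 233 genes held 10 or more, which came to 3508 members (22.2%). PCDH9, a protocadherin of the nervous system, had the most, with 72 members in 928 kb of chromosome 13 (chr13:66302834-67230445), which is 77.6 per Mb of gene against a median of 9.75 in the 309 genes of 500 kb and over. All of them lay in 3 introns, with 31 in intron 2, 23 in intron 3 and 18 in intron 4. The WT libraries had 58 and 48 of them open, Y641F 29 and 39, A677G 28 and 36, and LOF 44 and 43. Both WT libraries lay above all mutant libraries, and A677G replicate 1 was lowest. Of 42 open in both WT libraries, Y641F lost 15, A677G 13 and LOF 6, and 10 were open in all 8. At an equal number of peaks PCDH9 had 13 and 16 members open in WT and 19 and 20 in Y641F, so that the order of these lines turned.

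AUTS2, a gene of neural development whose protein joins a Polycomb repressive complex 1, had 42 members, with 35 and 38 open in WT, 13 and 16 in Y641F, 19 and 28 in A677G, with 30 and 28 in LOF. It also had the most members open in all 8 libraries, 13. GMDS, an enzyme gene of GDP-fucose synthesis, had 39 members, of which 33 and 36 were open in WT, 12 and 17 in Y641F, 26 and 26 in A677G, with 29 and 28 in LOF. With all peaks, Y641F was lowest in both genes and the LOF libraries lay below WT. At an equal number of peaks AUTS2 had 10 and 9 members open in WT and 12 and 14 in Y641F, and none of the 8 then open in both WT libraries was lost in any mutant. GMDS then had 15 and 11 open in WT, 12 and 10 in Y641F, 14 and 13 in A677G, with 10 and 12 in LOF. Y641F thus no longer lay below LOF in GMDS.

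CNTNAP2, an adhesion gene of the neurexin family and the longest of the top 10 at 2305 kb, had 39 members, with 32 and 34 open in WT, 11 and 13 in Y641F, 17 and 18 in A677G, with 23 and 22 in LOF. GSE1, a gene of a histone demethylase complex, had 29, with 26 and 25 open in WT, 6 and 15 in Y641F, 18 and 20 in A677G, with 25 and 24 in LOF. The lines thus kept in CNTNAP2 the order seen over all members, and in GSE1 each LOF library lay within 2 regions of the WT libraries. With peak numbers made equal, CNTNAP2 had 9 and 11 members open in WT, 10 and 10 in Y641F, 12 and 8 in A677G, with 11 and 7 in LOF, without that order, and GSE1 had 9 and 10 in WT and 15 and 12 in LOF. Others of the top 10 were the glypican genes GPC5 (41 members) and GPC6 (39), LRMDA (34) and DACH1 (29), a developmental transcription cofactor. PCDH9, GPC5, GPC6 and DACH1 all lie on chromosome 13, where the density over all genes was 17.4 members per Mb, within the range of 12.2 to 21.2 over the 22 chromosomes. RAD51B, a homologous recombination gene, followed AUTS2, PCDH9 and GMDS in members open in all 8 libraries, with 9.

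**Figure D4:**
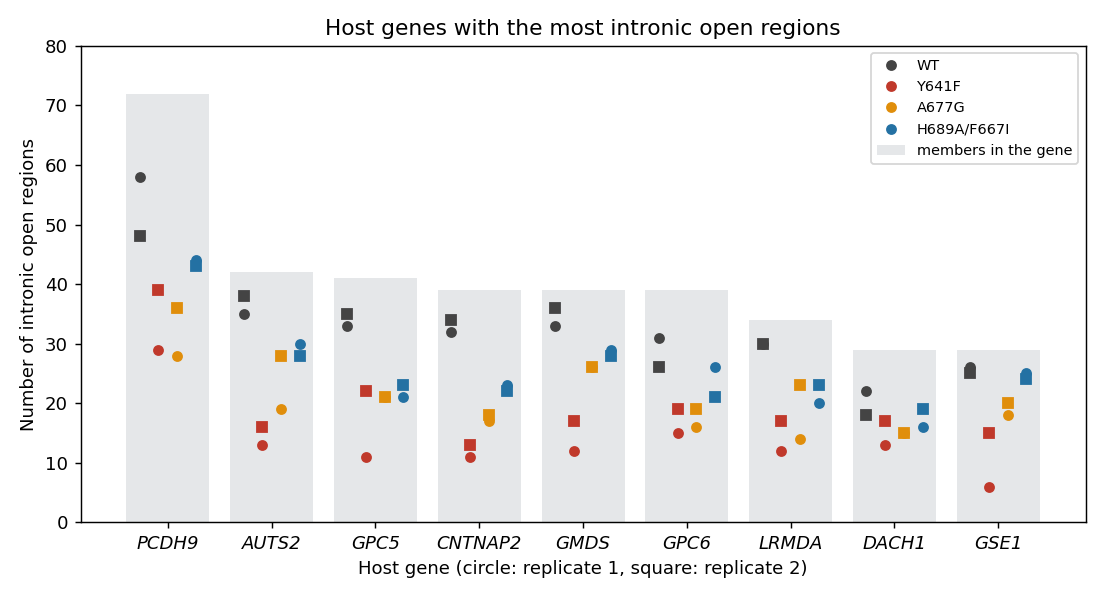
Grey bars give the number of intronic open regions in each of 9 of the 10 host genes with the most, and points the number open in each library (circle for replicate 1, square for replicate 2), coloured by line. In PCDH9 the WT points are at 58 and 48 of 72, above all mutant points, and in the 8 other genes the lowest point is Y641F replicate 1.

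Across the 111 genes with at least 10 members open in both WT libraries, the median gene lost 50% of them in Y641F (range 9.09 to 81.8), 30% in A677G (0 to 63.6) and 20% in LOF (0 to 50). The highest shares in Y641F were in NAALADL2 (9 of 11), ANKS1B, a synaptic scaffold gene (8 of 10), EPHA6, an ephrin receptor gene (7 of 10), ERBB4, a neuregulin receptor gene (7 of 10), and FHOD3, a formin gene of actin assembly (9 of 13). In A677G they were in NAALADL2 (7 of 11), LSAMP, a neural adhesion gene (8 of 14), RARB, a retinoic acid receptor gene (7 of 14), MACROD2 (6 of 12) and ERBB4 (5 of 10). In LOF they were in RARB (7 of 14), ROBO2, a Slit receptor gene (8 of 17), ERBB4 (4 of 10) and KIAA1217 (4 of 10). These genes were chosen for their loss in that line, and with 10 to 17 regions each the shares are coarse. NAALADL2 had 13 and 13 of its 16 members open in WT, 3 and 2 in Y641F, 2 and 6 in A677G, with 6 and 10 in LOF. ROBO2 had all 17 members open in both WT libraries, 5 and 6 in Y641F, 5 and 8 in A677G, with 5 and 9 in LOF.

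Length alone did not bring members. Of the 309 genes of 500 kb and over, 25 held none, among them RBFOX1, a neuronal splicing regulator of 2.47 Mb, CSMD1 (2.06 Mb), LINGO2 (1.28 Mb), PTPRT (1.12 Mb) and NRG3 (1.11 Mb). These were named for their length, and for holding none, after the values were seen. The promoter had a peak in each WT library in 12 of the 25 and in no library in another 12. Across host genes the number of members and gene length had a Spearman correlation of 0.644, a description over genes, which share libraries and annotation. Longer genes also hold more sequence in which a member can lie, so the correlation goes partly with the rule.

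Gene lists chosen for pathways near the study's questions gave shares near those of all members. In 23 host genes of neuronal adhesion and synapse there were 242 members, and of 190 open in both WT libraries 51.6% were lost in Y641F (interval 44.5 to 58.6), 37.9% in A677G (31.3 to 45.0) and 25.3% in LOF (19.6 to 31.9). The members of this list were led by CNTNAP2, LRP1B, a lipoprotein receptor gene (27 members), and ROBO1, a Slit receptor gene (22). For TGF-beta and Hippo signalling, led by TEAD1 and TGFBR3 (13 each) and BMPR1B (9), the shares of 81 were 45.7%, 32.1% and 21.0%. For chromatin regulators, led by ARID1B (20), JARID2 (14), a cofactor of Polycomb repressive complex 2, and CHD7 (11), they were 43.9%, 30.3% and 19.7% of 66. JARID2 lost 4 of 11 in Y641F and 5 of 11 in A677G. For developmental transcription factors, led by MECOM (28), NFIA (22) and FOXP1 (18), they were 47.4%, 26.6% and 21.4% of 173.

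Genes listed by the study as shared GOF targets were partly chosen on these libraries and are not independent evidence. Of the 108 genes, 78 held 321 members, led by FHOD3 (20), TENM4 (16) and FAT3 (13). Of 232 open in both WT libraries, Y641F lost 49.6% (interval 43.2 to 56.0), A677G 29.7% and LOF 22.4%, beside 48.1%, 29.6% and 20.9% of all members.

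Motifs were searched as exact letters on both strands of the 200 bp windows, and a match is not a binding site. A TEAD motif was in 11.9% of intronic windows and 7.06% of promoter windows, an E-box in 12.4% and 12.3%, a GATA motif in 14.0% and 3.34%, a HOX motif in 13.8% and 3.50%, and a ZIC motif in 11.2% and 8.19%. An AP-1 motif (TGANTCA) was in 8.93% of intronic, 8.67% of distal intergenic and 2.37% of promoter windows, and an SP motif (GGGCGG) in 5.67%, 9.96% and 50.5%. The SMAD (GTCTAGAC), POU (ATGCAAAT), CRE (TGACGTCA), NFI and NRF1 motifs were each in at most 1.06% of intronic windows. In distal intergenic windows the shares were 12.2% for TEAD, 13.4% for the E-box, 12.3% for GATA, 12.5% for HOX and 11.04% for ZIC, so that the intronic windows were closer to these than to the promoter windows for TEAD, GATA, HOX, ZIC, AP-1 and SP, and closer to the promoter windows for the E-box. The AP-1 motif was in 12.7% (interval 11 to 14.5) of the regions open in both WT and closed in all mutant libraries and in 8.77% (7.65 to 10.0) of those open in all 8, and the SP motif in 3.42% (2.58 to 4.52) and 7.84% (6.78 to 9.05). The AP-1 share also went along with WT peak size. It was 11.1% (9.88 to 12.5) in the group of smallest WT peaks and 7.72% to 9.08% in the larger groups.

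CTCF motifs were counted as either a longer CTCF motif or the string CTAGNNGGC, with a window holding both counted once. Such a pattern was in 1286 intronic windows (8.13%), against 9.49% of distal intergenic, 4.86% of promoter and 8.21% of all windows. Regions with it had narrower WT peaks (median 330.5 bp against 500.5 bp) of higher fold enrichment (4.18 against 3.88). Of them, 88.1% and 87.5% were open in the WT libraries, 17.8% and 35.1% in Y641F, 43.2% and 53.2% in A677G, with 57.9% and 58.2% in LOF. The values of members without it were 81.4% and 80.1%, 24.3% and 40.3%, 42.4% and 55.2%, and 58.8% and 61.5%. Members with the pattern were thus open more often than the rest in WT. They were open less often in both Y641F libraries, both LOF libraries and A677G replicate 2, and slightly more often in A677G replicate 1. They were 8.74% and 8.81% of the open members in WT, 6.10% and 7.16% in Y641F, 8.26% and 7.86% in A677G, with 8.02% and 7.72% in LOF.

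The loss of members with a CTCF pattern was 55.3% (interval 52.3 to 58.4) in Y641F, 33.6% (30.7 to 36.5) in A677G and 25.7% (23.1 to 28.5) in LOF, against 47.3%, 29.2% and 20.4% of the rest. Within groups of WT peak size the difference varied with the size. In the smallest group the loss with the pattern was 84.1% (79.6 to 87.8), 65.6% (60.0 to 70.7) and 53.0% (47.3 to 58.5). Without it the loss was 79.4% (77.5 to 81.2), 60.9% (58.7 to 63.1) and 48.8% (46.6 to 51.1), and the intervals overlapped in each mutant. In the third group the loss with the pattern was 44.8% (38.3 to 51.5), 17.0% (12.5 to 22.6) and 9.43% (6.19 to 14.1). Without it the loss was 54.2% (52.0 to 56.4), 27.7% (25.8 to 29.7) and 18.2% (16.6 to 19.9), and the intervals did not overlap. Of the members open in both WT libraries, 302 of 1019 with the pattern and 1900 of 9991 without it were in the smallest group, so the higher loss over all sizes went with a larger share of small WT peaks. The string was added after sequences had been read, some from regions chosen for having no peak in GOF or all mutant libraries. Its loss is therefore not independent of that choice. Counted apart, the longer motif went with losses of 54.6%, 31.9% (28.6 to 35.4) and 25.2%. Members without that motif had 47.6%, 29.4% (28.6 to 30.3) and 20.6%, so the A677G intervals overlapped. Members with the string had 56.0%, 37.1% (32.7 to 41.6) and 27.0%. These values are a description.

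**Figure D5:**
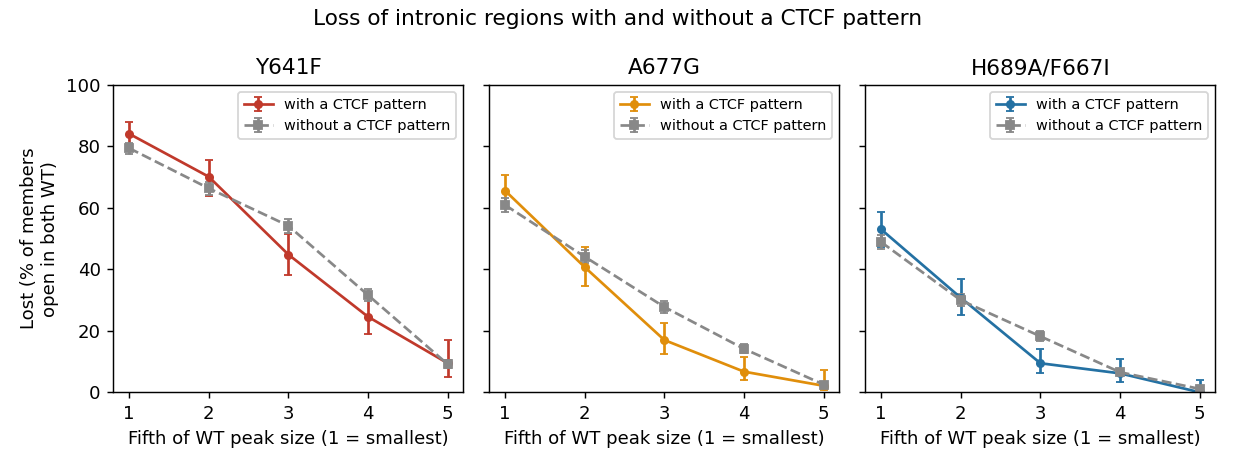
The vertical axis gives the percent of intronic regions open in both WT libraries that were lost, by group of WT peak size (1 is the smallest of 5), with 1 panel per mutant and 95% Wilson intervals. Coloured solid lines are regions with a CTCF pattern and dashed grey lines those without. In Y641F the lines cross, from 84.1% with and 79.4% without in the smallest group to 44.8% and 54.2% in the third group. The intervals overlap in the smallest group.

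The calls rested on replicates that overlapped to different degrees. Of the members open in WT replicate 1, 84.9% were open in replicate 2, and 86.3% the other way round. In Y641F these shares were 75.6% and 45.0%, in A677G 76.6% and 59.1%, and in LOF 73.7% and 70.7%. Neighbouring members of a host gene were a median of 21389 bp apart, and 13.6% of neighbours lay under 5 kb apart, so members are not independent of each other.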

How the data were processed

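ATAC-Seq peak lists of 8 HEK293T libraries (4 EZH2 lines, 2 libraries each) were analysed, grouped by sample title. According to the study's methods and the submitters' processing notes, the authors trimmed reads with Trim Galore 0.6.5, aligned them to GRCh38 with BWA 0.7.17, removed duplicates, and called peaks with MACS2 2.2.7.1 in each library. Signal tracks, not used here, were made with deepTools 3.5.1. Per peak, the deposited lists give a fold enrichment, a ratio of the pileup to the local background, a −log10 p and a −log10 q from the authors' peak caller, and a score that the authors' lists derive from it and that was not used here. The handling of the transposase offset and of mitochondrial reads is not given in the sources used here. The lists hold no read counts, so the study's count-based differential test was replaced by peak overlaps, and depth is unknown. The peak number per library stood in for it.

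Peaks on chromosomes 1 to 22 were merged where they shared at least 1 bp, and regions were classed with GENCODE 44 in Python 3.11.15 (numpy 2.4.6, pandas 2.3.3, scipy 1.17.1). Peaks on chromosome X and Y were left out. Groups of libraries were compared with an exact permutation test (two-sided) and Benjamini-Hochberg adjustment over 7 measures. Pooling WT with LOF against both GOF lines is a choice made here, not the study's contrast, since 2 libraries against 2 cannot reach a p below 0.333. Regions are not replicates, so shares over regions have Wilson intervals and no test. Named host genes were the 10 with the most members, the 5 with the highest percent lost per mutant among genes with at least 10 members open in both WT libraries, the 5 with the most members open in all 8 libraries and the 3 leading members of each gene list. Named regions were the 3 (gained, 2) that ranked highest on average by fold enrichment in each pattern, with chromosome 8 left out because no sequence of it is printed. Some of the genes and lists these rules select are not reported here. The members, lists and alternatives were chosen with earlier results of these data known. Calls of loss and intron ranks were tested on simulated data and recovered what was planted. The alternatives were a −log10 q of at least 5, an equal number of peaks, peaks covering 50% or more of a region, merging within 1 kb, a TSS distance of over 10 kb, a peak in at least 1 library, each library left out in turn, and a replicate block.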

Additional observations from a re-analysis of the deposited data

How the results depend on the processing

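Among the 7 measures of GOF against the other libraries, the difference in number, intronic share and ratio to promoter regions kept its direction in every alternative run. With 1 library left out the smallest p an exact permutation test allows is 0.0571, and the differences ranged from -1.03 to -0.62 (log2 number), -4.93 to -3.06 percentage points (share) and -0.82 to -0.52 (log2 ratio to promoter regions), each at p = 0.0571. With an equal number of peaks the difference in number was -0.12 and that in share -0.58. The log2 ratio to distal intergenic regions was -0.19 with −log10 q of at least 5 (exact permutation p = 0.0286) and turned to 0.0019 with an equal number of peaks. The GC difference turned to -0.80 and -0.41 in these settings, and the first intron share to -0.34 with a peak in at least 1 library and to -0.024 without Y641F replicate 2 (-0.024 to 0.43 over the libraries left out). From 0.20 with all peaks, the first intron difference was 1.33 with −log10 q of at least 5 (exact permutation p = 0.286) and 0.99 with an equal number of peaks (exact permutation p = 0.257), and the difference in log10 host length was 0.055 and 0.020. The causes were not tested.

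The replicate block permuted GOF labels only among libraries with the same replicate number, where the smallest p is 0.0556. The differences of -0.86 in log2 number, -4.10 percentage points in share and -0.69 in ratio to promoter regions then had exact permutation p = 0.0556, and no other call changed. The deviations of same-numbered libraries had correlations of -0.013 to 0.0026. The sample titles name no batch, and whether same-numbered libraries shared one was not tested. Replicate 1 had fewer peaks than replicate 2 in each mutant line, and more in WT.

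With −log10 q of at least 5, lost regions numbered 1458 (Y641F), 1058 (A677G) and 774 (H689A/F667I), which were 63.2%, 45.9% and 33.6% of 2307 (44.8%, 29.2% and 20.6% over all regions), and gained regions 4, 15 and 47. With an equal number of peaks 672, 408 and 349 were lost, and 426 and 342 were gained in Y641F and A677G. With 1 library left out, lost regions ranged from 5836 to 7854 (Y641F), 4150 to 5428 (A677G) and 2837 to 3771 (H689A/F667I), and gained regions from 153 to 366, 293 to 509 and 541 to 576, because fewer libraries must then be open or closed. Depth could not be used, and a region without a called peak may still hold signal.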
